A study of Mus musculus with 6 samples.

Results

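The 10 genes described here encode enzymes of the route that takes threonine and serine to glycine and folate-bound one-carbon units: Tdh, Gcat, Gldc, Amt, Gcsh, Shmt1, Shmt2, Mthfd1, Mthfd2 and Mthfd1l. They were found by symbol in the count table of the series, where they hold 11 of 55401 gene rows, because Gcat has a second row. All 10 genes, each in 1 row, passed the filter on low counts, which left 17573 rows. The second Gcat row held 7 counts in 1 control library and 0 in the other 5, and was not tested. Members were chosen by symbol and function, but with earlier results of these data in view, and the measured value that bore on the choice was the fall of Tdh after depletion. The change of Tdh is therefore given as a description, with no p, call or interval, and calls are counted over the other 9 genes.

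The cells were mouse embryonic stem cells of the line labelled 129/Ola, grown in serum with leukemia inhibitory factor, in which ZFP207 is tagged with an auxin-inducible degron (AID). The 3 control libraries came from cells without the auxin indole-3-acetic acid (IAA; treatment label AID 0h, genotype label WT). The 3 depleted libraries came from cells kept with IAA for 5 h (treatment label AID 5h, genotype label naming loss of ZFP207). By their titles all 6 libraries are of the tagged line, and untagged cells given IAA were not analysed here, so effects of IAA and of losing ZFP207 cannot be told apart. Newly made RNA was marked with 4-thiouridine (4sU), pulled down and sequenced, so the values weigh recent synthesis more than the standing RNA pool. The series asks how ZFP207 bears on the work of U1 snRNP, which finds 5' splice sites in new transcripts.

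Mouse embryonic stem cells are known for their dependence on threonine. Threonine dehydrogenase, the product of Tdh, and the ligase encoded by Gcat split threonine in mitochondria into glycine and acetyl-CoA. The glycine cleavage system, whose subunits include those encoded by Gldc, Amt and Gcsh, then passes a carbon of glycine to tetrahydrofolate. Serine hydroxymethyltransferases, Shmt1 in the cytosol and Shmt2 in mitochondria, draw a like unit from serine, and the Mthfd enzymes change its oxidation state for the synthesis of purines, thymidylate and methionine.

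Total counts ran from 14336811 to 25916628 per library, and the 10 genes together took 0.0922 to 0.117% of them. The summed level of 10 pluripotency markers was 4632 to 4998 TMM-normalised CPM in controls and 4869 to 5446 CPM in depleted libraries (CPM puts all libraries on a common total, which TMM corrects for composition). Of 8 markers of feeder fibroblasts, Postn, Col3a1, Lum and Dcn were at 0 in all libraries, and their sum was 6.05 to 10.9 CPM in controls and 2.99 to 5.69 CPM after IAA. Of 6 primitive endoderm markers none was at 0 throughout, and their sum was 3.30 to 7.61 CPM in controls and 8.58 to 9.61 CPM after IAA. For both of these lists the groups did not overlap, and their part in the results below was not tested. None of their 2 and 5 tested markers was called in the unpaired or paired edgeR fit described below, while the paired fit called 2 pluripotency markers higher. The groups overlapped for 6 primed epiblast markers (254 to 312 CPM in controls, 268 to 371 CPM after IAA). They also overlapped for 8 germ layer markers (19.1 to 28.2 CPM and 18.8 to 32.2 CPM). Zfp207 RNA, at 545 to 1116 CPM in controls and 596 to 1467 CPM after IAA, does not check the loss of the protein. Along the first principal component (31.4% of the variance) the libraries of replicate 2 stood at 104.25 and 38.49 and the other 4 below 0.

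After IAA, the labelled RNA of Tdh was lower in every replicate pair, while the fitted change of the other 9 genes was at most 1.27-fold. The unpaired edgeR fit, with Benjamini-Hochberg adjusted p under 0.05 over all genes, called 0 of the other 9, against 0.791% of all genes tested. It called 0.780% of all genes lower and 0.0114% higher. Without adjustment, 0 of the 9 had p under 0.05 in that fit, against 10.9% of all genes. DESeq2 called 0 of the 9, and 3.29% of all genes lower and 0.353% higher. With the replicate number added as a block (the paired fit), the same test called 0 of the 9, where it called 7.90% of all genes lower and 4.96% higher. Without adjustment, 3 of the 9 had p under 0.05 in the paired fit, against 27.9% of all genes. The median log2 fold change over the 9 members other than Tdh, depleted over control, was 0.095 in the unpaired fit, against 0.024 over all genes tested. These are relative levels in bulk samples, in which fewer cells of a type and less RNA per cell cannot be told apart.

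**Figure D1:**
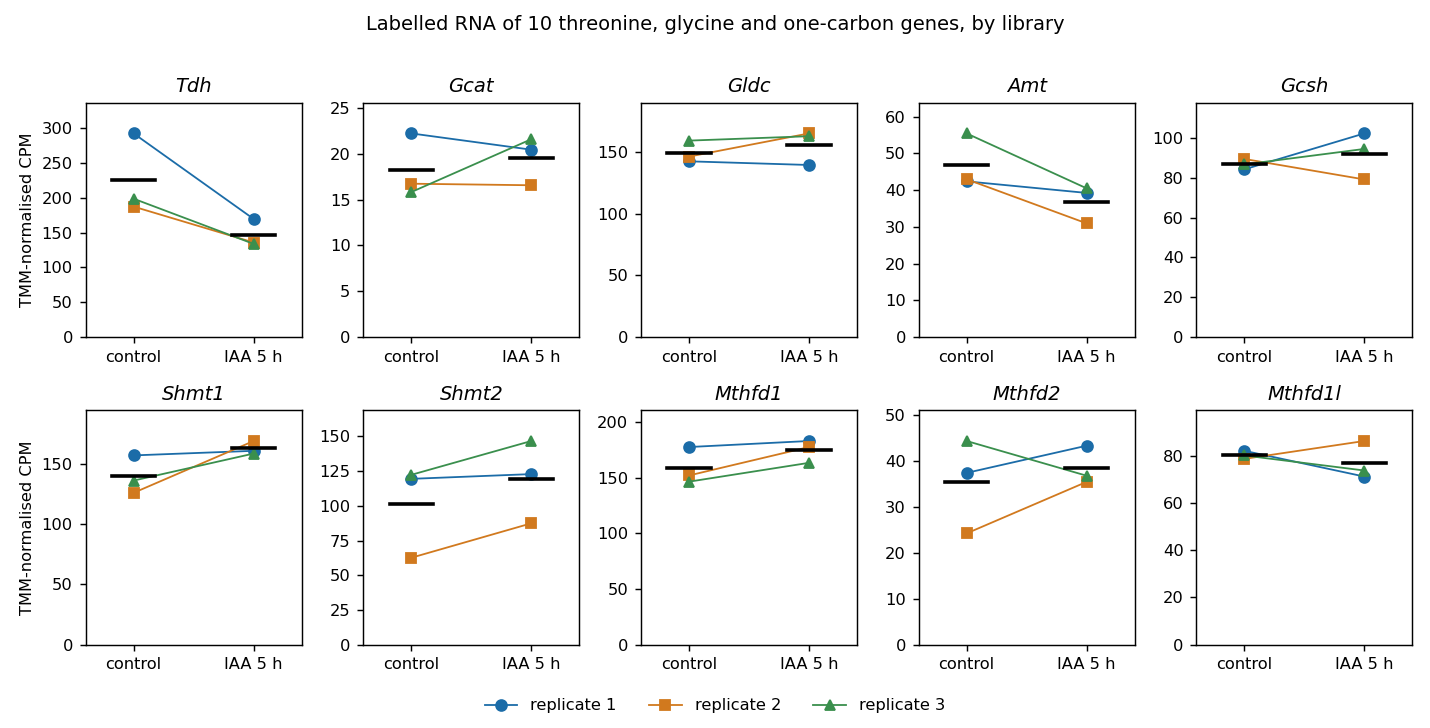
Level of each of the 10 genes in TMM-normalised CPM (vertical axis, from 0, its scale set for each gene) in control cells and after 5 h of IAA. Points are single libraries, lines join libraries with the same replicate number and black bars are group means (n = 3). Tdh runs from 187 to 293 CPM in controls and from 134 to 169 CPM after IAA, and Shmt2 is lowest in both libraries of replicate 2.

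Tdh (chromosome 14, 63492347 to 63509092, build mm10) encodes the mitochondrial enzyme that opens threonine breakdown. The control libraries (replicates 1 to 3) held 293, 187 and 199 CPM and the depleted libraries 169, 136 and 134 CPM, from 1974 to 7686 counts per library. All 3 depleted libraries lay below all 3 controls, and control replicate 1 was the highest of the 6. The mean was 226 ± 57.7 CPM in controls and 146 ± 20.1 CPM after IAA (SD, n = 3). Within pairs 1 to 3 the log2 difference was -0.79, -0.46 and -0.57, with a mean of -0.61 ± 0.16 (SD). The fitted level after IAA was 1.55-fold lower without the replicate block and 1.53-fold lower with it. Without control replicate 1 the unpaired log2 fold change was -0.40, against -0.63 with all libraries. With any pair left out, the paired log2 fold change lay between -0.68 and -0.52. Of all genes tested, 24.4% were lower in all 3 pairs and 11.8% had all depleted libraries below all controls.

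A long noncoding gene, Gm17232 (chromosome 14, 63493656 to 63502900), lies within the interval of Tdh, and the strand setting of the counts is not given in the sources used here. Its level was 2.70, 2.90 and 3.14 CPM in controls and 1.87, 1.19 and 0 CPM after IAA. Reads of Gm17232 were thus few beside those of Tdh in each library.

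Over the 6 libraries, the 5 genes with the profile most like that of Tdh were Coro2b, Sdhb, Sptbn4, Mcf2l and Wdr53, of 9545 other genes with a mean of at least 10 CPM. Likeness was the root mean square difference of log2 CPM, each gene centred on its own mean, and it ran from 0.076 for Coro2b to 0.092 for Wdr53. Sdhb, a subunit of succinate dehydrogenase, went from 44.7, 30.2 and 27.7 CPM in controls to 26.0, 19.5 and 18.6 CPM after IAA. Like Tdh, each of these 5 was highest in replicate 1 within both groups. These 5 were picked for their likeness to Tdh over the same libraries, so this pattern and their fall follow from the choice. Of the other 9 members, the nearest to Tdh by this measure was Amt, with a difference of 0.34 and rank 1246, and the farthest Shmt2, with 0.56 and rank 7463.

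Gcat (chromosome 15, 79030874 to 79042531), whose product cleaves the 2-amino-3-ketobutyrate made by threonine dehydrogenase, was not called in either fit. It stood at 22.2, 16.7 and 15.8 CPM in controls and 20.4, 16.6 and 21.6 CPM after IAA, from 292 to 584 counts per library. The groups overlapped, and the depleted library was lower in pairs 1 and 2 and higher in pair 3. The paired log2 fold change was 0.10 (95% interval -0.27 to 0.47, edgeR adjusted p = 0.766). Galr3, which overlaps the end of Gcat, had 0 counts in 5 of the 6 libraries.

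The ratio of Tdh to Gcat within a library does not depend on how libraries are scaled. On the log2 scale it was 3.72, 3.48 and 3.65 in the controls and 3.05, 3.03 and 2.63 after IAA. The groups did not overlap, with a mean difference of -0.71, and the pairs gave -0.67, -0.45 and -1.02. This ratio was not tested, because it rests on Tdh.

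Among the 3 members that encode subunits of the glycine cleavage system, Amt was the only one lower in all 3 pairs. None of these 3 was called in either fit. Dld, the gene of the shared dehydrogenase of the system, is not a member and was also lower in all 3 pairs (log2 difference -0.16, -0.054 and -0.48). Amt (chromosome 9, 108296905 to 108302302) encodes the aminomethyltransferase that hands the one-carbon unit to tetrahydrofolate. Its level was 42.4, 43.0 and 55.5 CPM in controls and 39.2, 30.9 and 40.5 CPM after IAA. All depleted libraries lay below all controls, the nearest by 1.91 CPM, and the means were 46.9 ± 7.38 and 36.9 ± 5.19 CPM. Of all genes tested, 11.8% had all depleted libraries below all controls and 24.4% were lower in all 3 pairs. The paired log2 fold change was -0.34 (95% interval -0.61 to -0.076, unadjusted p = 0.0161, edgeR adjusted p = 0.0890), and the adjusted p was 0.566 in the unpaired fit.

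Gldc (chromosome 19, 30098441 to 30175441), the glycine decarboxylase that starts glycine cleavage, stood at 143, 147 and 160 CPM in controls. After IAA it stood at 140, 165 and 163 CPM, with 1 library below and 2 above the range of the controls. Its paired log2 fold change was 0.059 (95% interval -0.12 to 0.23, edgeR adjusted p = 0.698). The pseudogene Rpl31-ps20, inside Gldc, was at 0 in all 6 libraries. Gcsh (chromosome 8, 116981967 to 116993498) encodes the lipoylated carrier protein of the system. It was at 84.2, 89.5 and 86.7 CPM in controls and at 102, 79.2 and 94.5 CPM after IAA, with a wider spread in the depleted libraries. Its paired log2 fold change was 0.077 (95% interval -0.14 to 0.30, edgeR adjusted p = 0.686).

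Both serine hydroxymethyltransferase genes were higher in the depleted library of all 3 pairs, without passing the adjusted test. Over all genes tested, 24.2% were higher in all 3 pairs. Shmt1 (chromosome 11, 60788897 to 60811265), the cytosolic enzyme, was at 157, 126 and 136 CPM in controls and at 161, 169 and 159 CPM after IAA. Its groups did not overlap, as for 6.94% of all genes with depleted libraries above controls, but the lowest depleted library lay only 1.56 CPM above the highest control. The paired log2 fold change was 0.23 (95% interval 0.033 to 0.42, unadjusted p = 0.0251, edgeR adjusted p = 0.118).

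Shmt2 (chromosome 10, 127517123 to 127522444), the mitochondrial enzyme, was at 119, 62.5 and 122 CPM in controls and at 123, 87.4 and 147 CPM after IAA. Both libraries of replicate 2 were low, at 62.5 and 87.4 CPM, and the groups overlapped. The paired log2 fold change was 0.26 (95% interval 0.049 to 0.47, unadjusted p = 0.0195, edgeR adjusted p = 0.100). In the unpaired fit it was 0.23, and -0.024 without control replicate 2. The overlapping gene Ndufa4l2 was under 1 CPM in all libraries.

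Promoter sequences of Amt and Shmt1 are shown because they are the members other than Tdh whose groups did not overlap, one below and the other above the controls, a choice made after their values were seen. Each runs 5′ to 3′ on the gene's strand from 250 bases before to 50 bases after the RefSeq start (GRCm38.p6), at chr9:108296655-108296954 (plus strand) for Amt and chr11:60811216-60811515 (minus strand) for Shmt1. Capitals mark matches on either strand to CCAAT or GGGCGG.
Amt: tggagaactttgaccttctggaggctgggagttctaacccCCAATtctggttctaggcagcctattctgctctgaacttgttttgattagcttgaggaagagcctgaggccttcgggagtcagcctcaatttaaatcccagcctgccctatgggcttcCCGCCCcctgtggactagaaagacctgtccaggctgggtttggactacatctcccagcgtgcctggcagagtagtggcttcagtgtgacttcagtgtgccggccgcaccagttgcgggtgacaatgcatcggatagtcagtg
Shmt1: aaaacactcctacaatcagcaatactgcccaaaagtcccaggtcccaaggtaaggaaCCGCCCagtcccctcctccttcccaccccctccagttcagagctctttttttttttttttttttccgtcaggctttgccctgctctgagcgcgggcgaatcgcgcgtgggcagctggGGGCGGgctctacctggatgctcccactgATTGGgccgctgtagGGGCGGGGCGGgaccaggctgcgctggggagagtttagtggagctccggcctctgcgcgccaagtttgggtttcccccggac
Amt holds 1 match to CCAAT and 1 to GGGCGG, and Shmt1 holds 1 and 4, of which the last pair overlap each other. A promoter was found for 9 of the 10 members, all but Tdh, and 6 motifs were searched on both strands. CCAAT was in 6 of the 9 and in 37.4% of the 32851 promoters in the table, and GGGCGG was in 7 of the 9 and in 35.7% of all. Those promoters were not limited to genes tested here, so the shares are not matched to expressed genes. CACGTG, the E-box form that MYC proteins bind, was in Gcat alone and in 7.15% of all. TGATGNAA, a form of the element read by ATF4 dimers, TGACGTCA and TATAAA were in none of the 9 and in 3.97, 1.79 and 13.6% of all. These matches are letters in a window, and no binding was measured.

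**Figure D2:**
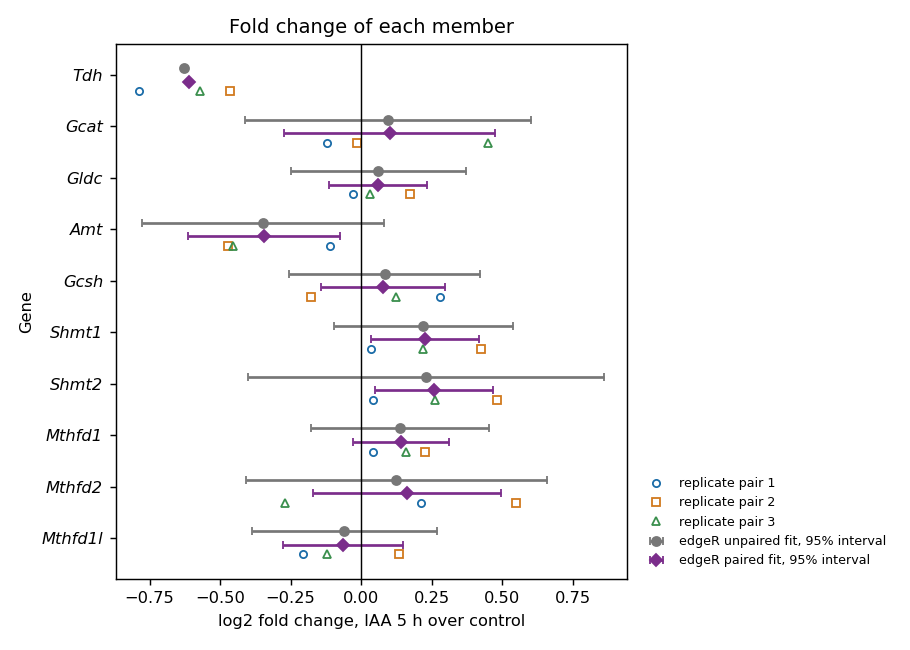
Log2 fold change of each of the 10 genes, IAA for 5 h over control (horizontal axis), in the unpaired and the paired edgeR fit with 95% intervals for the 9 genes other than Tdh, and the difference within each replicate pair (open marks). Tdh, at -0.63 unpaired and -0.61 paired, is shown without an interval, and Amt, Shmt1 and Shmt2 have paired intervals that leave out 0 before adjustment for the number of genes.

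Of the 3 Mthfd genes, none was called in either fit. Mthfd1 (chromosome 12, 76254406 to 76319820), the cytosolic enzyme with dehydrogenase, cyclohydrolase and formate ligase activities, was at 178, 152 and 146 CPM in controls and at 183, 178 and 163 CPM after IAA. It was higher in all 3 pairs, as were 24.2% of all genes, though the groups overlapped (paired log2 fold change 0.14, 95% interval -0.028 to 0.31, edgeR adjusted p = 0.267). The noncoding genes Gm40444 and Gm40443 overlap Mthfd1, and no row of the count table was matched to them. Mthfd2 (chromosome 6, 83305704 to 83326011), the mitochondrial dehydrogenase and cyclohydrolase, was at 37.4, 24.2 and 44.4 CPM in controls and at 43.4, 35.5 and 36.8 CPM after IAA. Control replicate 2 was the lowest library, and the depleted library was lower in pair 3 alone (paired log2 fold change 0.16, 95% interval -0.17 to 0.50, edgeR adjusted p = 0.550). The unpaired value for Mthfd2 was 0.12, and -0.085 without control replicate 2.

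Mthfd1l (chromosome 10, 3972892 to 4167081) encodes the mitochondrial formate ligase and, at 194 kb, is the longest of the 10 genes. It was at 82.1, 78.7 and 80.1 CPM in controls and at 71.2, 86.2 and 73.7 CPM after IAA, lower in pairs 1 and 3 and higher in pair 2. The paired log2 fold change was -0.065 (95% interval -0.28 to 0.15, edgeR adjusted p = 0.731). Of the genes inside its interval, the pseudogene Gm16074 was at 2.74 to 3.09 CPM in controls and 3.42 to 7.24 CPM after IAA, the snRNA gene Gm25515 was under 0.38 CPM throughout, and no row was matched to Gm40591. The median paired log2 fold change of the 1738 tested genes of 100 kb or more was -0.13. Tdh, at 16.7 kb, falls in the class of 10 to 30 kb with Gcat, Gcsh, Shmt1 and Mthfd2, where the median was 0.036 and 9.31% of 4650 genes were called lower in the paired fit.

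Mitochondrial and cytosolic partners were compared as ratios within a library. The log2 ratio of Shmt2 to Shmt1 was -0.40, -1.01 and -0.16 in the controls and -0.39, -0.95 and -0.11 after IAA. It thus differed between replicate numbers far more than within a pair, where depleted minus control was 0.0062, 0.059 and 0.042. The ratio of Mthfd2 to Mthfd1 differed by 0.17, 0.32 and -0.43 within pairs 1 to 3. That of Mthfd1l to Mthfd1 was lower in all 3 pairs, by -0.25, -0.092 and -0.28, with means of -0.98 ± 0.12 in controls and -1.18 ± 0.16 after IAA (SD, n = 3). An exact two-sided permutation test over the 6 libraries gave p = 0.7 for Shmt2 to Shmt1, 1 for Mthfd2 to Mthfd1 and 0.2 for Mthfd1l to Mthfd1 (Benjamini-Hochberg adjusted 1, 1 and 0.6). An exact two-sided sign-flip permutation test within pairs, added after the data were seen, gave 0.25, 1 and 0.25 for the same ratios (adjusted 0.375, 1 and 0.375). The smallest p that 3 against 3 allows is 0.1, and that 3 pairs allow is 0.25, so no ratio could pass 0.05 in either test.

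**Figure D3:**
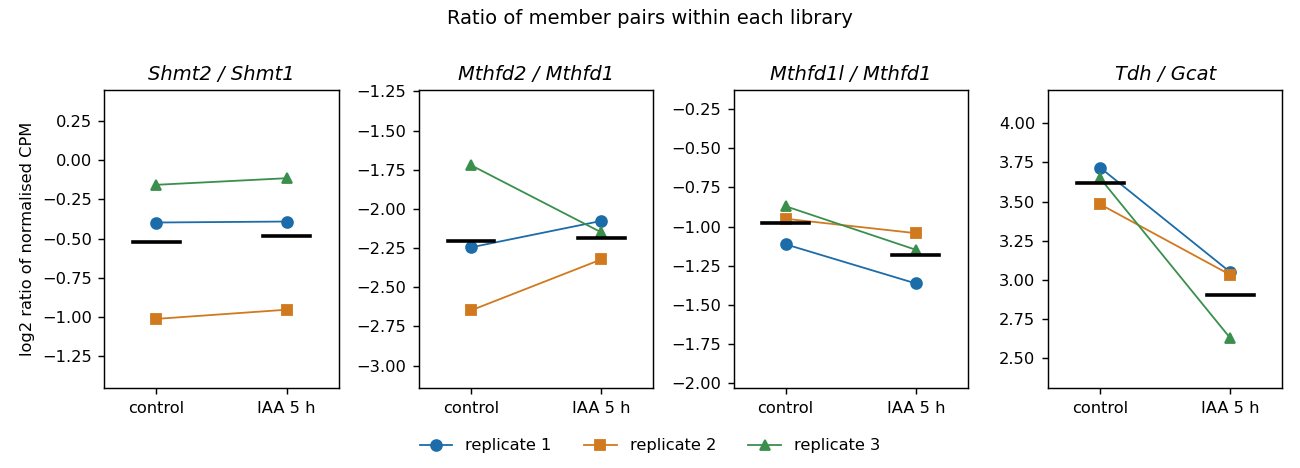
Log2 ratio of the normalised CPM of 2 genes within each library (vertical axis, the same span of values in each panel) in control cells and after 5 h of IAA. Lines join libraries with the same replicate number and black bars are group means (n = 3). Lines for Shmt2 over Shmt1 are nearly flat but lie apart by replicate, and those for Tdh over Gcat run downward in all 3 pairs.

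The genes around this route were taken from 9 lists of 95 genes, of which 85 were tested. In the paired fit 8 of the 85 fell and 8 rose, 18.8% of them, beside 12.9% of all genes. The lists were chosen with earlier results of these data known, so this difference is a description and was not tested. In the unpaired fit Slc1a4 and Gart fell and 0 rose, and 12 of the 85 had an unadjusted p under 0.05, beside 10.9% of all genes. DESeq2 called 4 of the 85, all lower. The median log2 fold change was 0.0083 in the unpaired fit, against 0.024 over all genes tested.

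Of 9 transporters of serine, glycine and threonine, 2 fell, 0 rose and 7 were not called in the paired fit. Over all genes that fit called 7.90% lower and 4.96% higher. The paired log2 fold changes of those 7 ran from -0.51 to 0.61. Slc1a4 (chromosome 11, 20302180 to 20332713) encodes a plasma membrane carrier of serine, alanine and threonine. It stood at 41.9, 26.9 and 34.3 CPM in controls and 13.3, 7.57 and 6.50 CPM after IAA, with no overlap. Its log2 fold change was -1.91 unpaired (edgeR adjusted p = 0.0379) and -1.94 paired (SE 0.18, edgeR adjusted p = 5.53e-05). Sfxn1 (chromosome 13, 54071656 to 54108346, overlapped by Gm52069), the mitochondrial serine carrier, was at 85.0, 103 and 87.1 CPM in controls and 65.2, 66.4 and 55.6 CPM after IAA. It fell 1.47-fold in the paired fit (edgeR adjusted p = 0.00279) and was not called in the unpaired one. Both stayed called in the paired fit when any pair was left out.

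Purine synthesis, which takes up glycine and formyl-folate, held 2 genes that fell and 2 that rose of 12 tested in the paired fit. The shares of all genes were 7.90% lower and 4.96% higher. Gart (chromosome 16, 91621395 to 91646972) encodes the enzyme that joins glycine to the purine precursor and adds a formyl group. It went from 281, 240 and 221 CPM to 129, 120 and 103 CPM, so that each depleted library was well below every control. The log2 fold change was -1.07 in both fits (edgeR adjusted p = 0.0302 unpaired and 1.55e-05 paired). Prps2 (chromosome X, 167346320 to 167382872, overlapped by Gm26368), a phosphoribosyl pyrophosphate synthetase gene, fell 1.98-fold in the paired fit (edgeR adjusted p = 0.00331). The inosine monophosphate dehydrogenase genes Impdh1 and Impdh2 rose 1.49-fold and 1.26-fold there. Impdh1 lost its call when any pair was left out, and Impdh2 was called without pair 1 only.

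In the methionine cycle and transsulfuration, 3 of 11 tested genes fell and 1 rose in the paired fit, beside 7.90% and 4.96% of all genes. None was called in the unpaired edgeR fit, where 4 had an unadjusted p under 0.05, beside 10.9% of all genes. DESeq2 called 0. Cbs and Cth, the pair of enzymes that turn homocysteine and serine into cysteine, fell 1.84-fold and 1.51-fold. Cbs (chromosome 17, 31612623 to 31637233) went from 14.8 ± 3.47 to 7.95 ± 0.643 CPM and Cth (chromosome 3, 157894248 to 157925081) from 53.1 ± 16.0 to 34.4 ± 5.32 CPM. Mtrr, which reactivates methionine synthase, fell 1.25-fold (overlapped by Fastkd3) and lost its call when any pair was left out. Mat2a (chromosome 6, 72432796 to 72439556, overlapped by Ggcx and Particl), which makes S-adenosylmethionine, rose from 458 ± 49.1 to 622 ± 61.0 CPM (SD, n = 3), with a paired log2 fold change of 0.44 (edgeR adjusted p = 0.00846). Cbs was called without pair 3 only, Cth was not called without pair 3 (adjusted p = 0.0903), and Mat2a was called without any 1 pair.

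Of 16 tested genes of folate uptake, reduction and the folate pool, 1 fell and 1 rose in the paired fit. Among all genes 7.90% fell and 4.96% rose there. Mthfsd (chromosome 8, 121091628 to 121108413), named for a methenyltetrahydrofolate synthetase domain, went from 36.7 ± 1.29 to 20.1 ± 3.24 CPM (paired log2 fold change -0.88, edgeR adjusted p = 0.00240). Fpgs, the enzyme that adds glutamates to folates and so holds them in the cell, rose 1.28-fold (edgeR adjusted p = 0.0270; overlapped by Eng and Mir8093) and kept its call without pair 1 only. In the unpaired edgeR fit 0 of the 16 were called and 1 had an unadjusted p under 0.05, beside 10.9% of all genes. DESeq2 called 1 of the 16. None of the 3 genes of serine synthesis, the 4 of lipoylation and its shared dehydrogenase or the 8 other tested enzymes of serine, glycine and threonine was called in the unpaired or the paired edgeR fit or by DESeq2. At an unadjusted p under 0.05, the paired fit held 1, 2 and 2 of them and the unpaired fit 0 of each. Over all genes these shares were 27.9% and 10.9%.

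ATF4 and MYC are known regulators of one-carbon genes. Of 15 genes on the list of ATF4 and its targets, Ddit4 and Sesn2, both inhibitors of growth signalling, rose 1.39-fold and 1.29-fold in the paired fit and 0 fell. Each related gene was put on 1 list only, so this list does not cover all targets of ATF4. The 8 related genes that fell in that fit were all on other lists. Of 7 genes of the MYC network, Myc and Mnt rose in the paired fit, by 1.41-fold and 1.29-fold, and 0 fell. Beside both lists, that fit called 7.90% of all genes lower and 4.96% higher. Neither the unpaired edgeR fit nor DESeq2 called any of these 22 genes. In the unpaired fit 2 of them, both of the MYC list, had an unadjusted p under 0.05, beside 10.9% of all genes. With the block, Sesn2 was called without pair 1 but not without pair 2 or 3, Myc was called without pair 2 or 3 but not without pair 1, and Ddit4 and Mnt were not called with any pair left out.

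**Figure D4:**
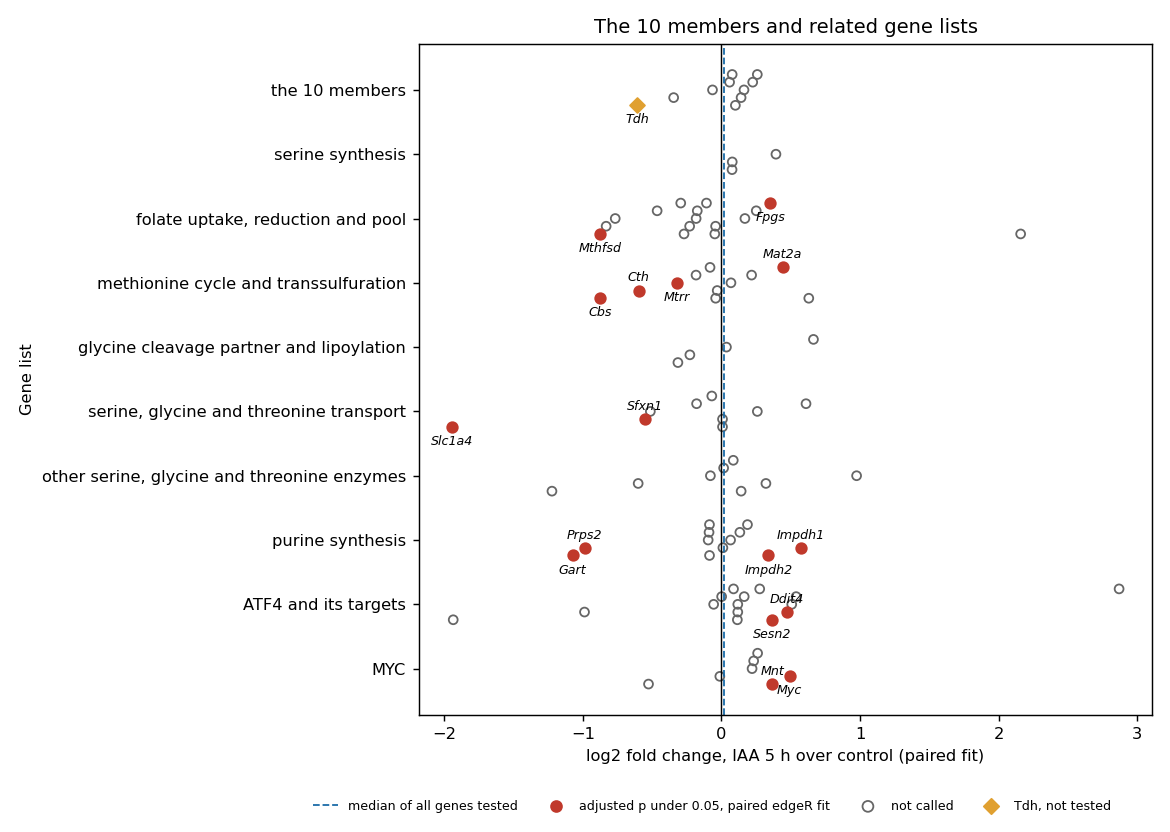
Log2 fold change in the paired edgeR fit, IAA for 5 h over control (horizontal axis), of the 10 members and the 85 tested genes of 9 related lists (rows, with points spread vertically for legibility). Filled red circles have an adjusted p under 0.05 over all genes and are named. Tdh, marked in the key as not tested, is a diamond because its result in this fit is not used here. The dashed line is the median of all genes tested, 0.018. The other 9 members are open circles, and Slc1a4 and Gart lie farthest to the left of the red circles.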

How the data were processed

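The deposited table holds estimated counts of reads per gene, which the authors gave as whole numbers without normalization. Build mm10, DESeq2 1.42.0, StringTie 2.2.1 and HISAT2 2.2.1 are named, per the submitters' processing notes, without their roles. Reads of overlapping genes may have been divided between them. The sources used here do not give strand, annotation version or 4sU pulse length, and the series calls replicates independent without saying whether they were separate cultures, so p-values cover only the spread among these libraries.

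In R 4.3.3, edgeR 4.0.16 kept genes by filterByExpr, scaled libraries by TMM and ran its robust quasi-likelihood test on all 6 libraries, with Benjamini-Hochberg adjustment over all 17573 genes. Standard errors and 95% intervals of a log2 fold change follow from its F statistic. Log2 CPM used a prior count of 0.5. The scripts were tested on simulated data. The labels number replicates 1 to 3 in both groups. Deviations from the group means correlated across genes at 0.214, 0.317 and 0.267 for libraries with the same number. For libraries with different numbers the correlations ran from -0.230 to -0.024. Centring on group means pushes these below 0 when the same-number values are positive, so they are no separate check. On the basis of the same-number values, taken from the same counts, libraries were paired by number. The fit with the replicate block is given as the paired fit. The unpaired fit was planned as the main one and the replicate block as an alternative.

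The members and lists were chosen with earlier results of these data known. Named genes are the 10 members, genes of the related lists called in either fit, the 5 genes most like Tdh and genes overlapping a member in RefSeq's GRCm38.p6 table, which gave coordinates. Transcript lengths were not used, so levels are not compared between genes. Alternatives were DESeq2, other scalings, no filter and leaving out libraries or pairs.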

Additional observations from a re-analysis of the deposited data

How the results depend on the processing

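With the replicate block, 2259 genes in all, 0 of the 9 members other than Tdh and 16 related genes were called, against 139, 0 and 2 without it. Tdh, whose fall bore on the choice of members, is left out of the member counts, and 0 of the other 9 were called under any setting. With the block and 1 pair left out, these counts were 1418, 1428 and 949 without pairs 1 to 3, 0 each time, and 11, 10 and 8. With the block and no filter on low counts, a setting added after seeing the data, they were 1128, 0 and 7. DESeq2 called 641, 0 and 4. When a single library or pair was left out without the block, 0 to 1 genes in all, 0 members and 0 related genes were called. RLE size factors, library totals and no filter kept each of the 3 counts of the unpaired fit within 1.5 times.

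The direction of Tdh, Amt, Shmt1 and Mthfd1 was the same under all 18 alternatives, with Tdh between -0.75 and -0.40. The log2 fold change changed sign for Shmt2 without control replicate 2 (-0.024). For Mthfd2 it did so without control replicate 2 (-0.085) and without pair 2 (-0.028, or -0.025 with the block). For Gcat it did so without control replicate 3 (-0.0010) and without pair 3 (-0.086, or -0.083 with the block). For Gcsh and Mthfd1l it did so without pair 1 (-0.022 and 0.010, or -0.027 and 0.0068 with the block), and for Gldc without pair 2 with the block (-0.00024). Over the single libraries and pairs left out without the block, the values ran from -0.024 to 0.41 for Shmt2, -0.085 to 0.34 for Mthfd2, -0.086 to 0.27 for Gcat, -0.022 to 0.20 for Gcsh, -0.16 to 0.010 for Mthfd1l and 0.0018 to 0.14 for Gldc. None of these 6 genes was called under any alternative, and the cause was not tested. The differences in the 4 ratios moved by less than the pooled SD within groups (0.43 for Shmt2 to Shmt1, 0.34 for Mthfd2 to Mthfd1, 0.14 for Mthfd1l to Mthfd1 and 0.19 for Tdh to Gcat) under every alternative run, although those of Shmt2 to Shmt1 (-0.21 to 0.27) and Mthfd2 to Mthfd1 (-0.20 to 0.26) changed sign when libraries were left out. The lowest count behind a tested member's level was 292, for Gcat.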
